A study of Homo sapiens with 15 samples.

Results

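The G2 and mitosis genes described here are 40 genes whose products carry cells from the end of DNA replication to the separation of the daughter cells. They were chosen by symbol, and all 40 were among the 18485 genes counted. RNA came from SNB19, a human glioblastoma cell line grown in DMEM with serum, transduced with lentiviral pCHMWS vectors. The 5 groups had 3 libraries each: cells with the empty vector (EV), with full-length ZBTB18 (FL), with a mutated full-length construct (FL-mut), with SF-Nte, a short form of the protein, and with SF-mut, its mutated counterpart. ZBTB18 is a zinc finger protein known as a transcriptional repressor. Which residues the mutants change is not given in the labels, nor how the short form is made, or how long after transduction cells were taken. They also do not say whether replicates were separate cultures, so the p-values here reflect the spread among these libraries, which may be technical. Polyadenylated RNA was read as PCR-amplified cDNA on the Oxford Nanopore platform.

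As background, entry into mitosis is driven by the kinase CDK1 bound to a cyclin, which is held back by an inhibitory phosphorylation until CDC25 phosphatases remove it. Aurora and Polo-like kinases then build the spindle, the spindle checkpoint holds the anaphase-promoting complex (APC/C) until every chromosome is attached, and CDC20 and UBE2C let that complex destroy cyclin B and securin. Many of these genes are transcribed mainly in G2 and M, through promoter elements named CHR (cell cycle genes homology region) and CCAAT, which are known to be bound by the MuvB complexes with B-MYB and FOXM1 and by NF-Y. In bulk RNA, a smaller share of cells in G2 or M and less RNA per such cell cannot be told apart.

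The promoters of these genes carry those elements often. In RefSeq promoter windows (GRCh38.p14), the 250 bases before each start were searched on both strands for CHR (TTTGAA), a CHR variant (TTCGAA) and CCAAT. Of the 40 genes, 34 matched, with 45 windows between them. AURKA, TPX2, BIRC5, BUB3, TTK and UBE2C had no entry under these symbols, so their promoters were not searched. CHR or its variant stood in 21 of the 45 windows (46.7%), against 14.3% of all 35116 windows, and CCAAT in 30 (66.7%), against 32%. Within 60 bases before the start, CHR or its variant stood in 14 member windows (31.1%) and in 2.88% of all windows. These are CKS1B, CKS2, CDK1, CCNB2, CDC25B, CDC25C, PLK1, BUB1B, CENPA, KIF11, KIF23, HMMR, MKI67 and ANLN. The letters ACATCTG, a core of ZBTB18 binding motifs, stood in 0 of the 45 windows and in 2.83% of all windows. At that share few of 45 windows would hold them, so the 0 says little. A match is a description of the letters and not a measured binding site. The 80 bases directly before the start are shown for 5 genes with a CHR or its variant there, whose levels are described below. CCNB1 is shown with them, where neither TTTGAA nor TTCGAA was found. Other forms of the CHR were not searched, so CCNB1 is not shown to lack one. Capitals mark the CHR or its variant and the CCAAT letters nearest to it (ATTGG is CCAAT on the other strand), and all are on the plus strand of GRCh38.p14.
CCNB2, chr15:59105066-59105145: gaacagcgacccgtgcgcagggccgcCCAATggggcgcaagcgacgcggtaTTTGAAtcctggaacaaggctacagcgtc
PLK1, chr16:23678809-23678888: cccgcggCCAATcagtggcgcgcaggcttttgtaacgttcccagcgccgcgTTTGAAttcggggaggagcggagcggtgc
CDC20, chr1:43358901-43358980: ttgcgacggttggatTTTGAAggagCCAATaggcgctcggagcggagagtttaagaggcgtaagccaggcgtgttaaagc
CKS1B, chr1:154974601-154974680: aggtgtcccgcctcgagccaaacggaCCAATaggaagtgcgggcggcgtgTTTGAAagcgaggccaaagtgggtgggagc
CDC25B, chr20:3796230-3796309: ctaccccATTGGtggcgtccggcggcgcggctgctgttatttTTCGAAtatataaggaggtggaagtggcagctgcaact
CCNB1, chr5:69167070-69167149: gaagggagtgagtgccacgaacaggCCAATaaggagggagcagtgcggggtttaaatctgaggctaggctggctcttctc

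Depth limits what can be seen of these genes. Total counts per library were 1274474 to 1930245 with EV, 803316 to 1393060 with FL, 865997 to 1313573 with FL-mut, 432611 to 603155 with SF-Nte and 315693 to 597414 with SF-mut, so the short-form libraries were the shallowest. Of the 40 genes, 28 had at least 1 count in all 15 libraries, 16 had at least 10 and 5 had at least 100. The filter on low counts left 38 of them among 6767 tested genes and removed CENPA, a centromeric histone (0 to 12.3 CPM, the TMM-scaled share of a library's counts), and KIF11, a spindle motor (0 to 6.41 CPM). The summed level of a list of markers of glioma and mesenchymal cells was 237 to 1199 CPM, that of immune markers at most 30.2, epithelial 9.45, endothelial 5.67 and neuronal 4.75 CPM. Within the glioma and mesenchymal list, VIM, CD44 and FABP7 reached 828, 568 and 359 CPM. The others were low: NES reached at most 32.2, SOX2 27.2, EGFR 9.61, GFAP, an astrocyte marker, 7.38 and S100B 4.08 CPM. ZBTB18 lay between 4.29 and 6.99 CPM with EV and between 195 and 6734 CPM in the other 12 libraries. By group it was 612 to 3009 CPM with FL, 890 to 6734 with FL-mut, 195 to 461 with SF-Nte and 837 to 3557 with SF-mut. The SF-Nte libraries were thus the lowest of the construct libraries. Vector and endogenous transcripts were not told apart.

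Before any comparison, 2 libraries stood apart from the rest for these genes. The summed level of the 40 genes was 4619 CPM in FL-mut replicate 2 and 5989 CPM in SF-mut replicate 2, and between 7933 and 12021 CPM in the other 13. By group it was 8873 ± 604 CPM with EV (SD, n = 3), 10125 ± 2060 with FL, 7986 ± 2958 with FL-mut, 9423 ± 394 with SF-Nte and 8742 ± 2703 with SF-mut. Such a sum follows the most abundant genes, with means of 1315 CPM for CKS1B, 1194 for PTTG1, 1064 for CCNB1 and 1022 for BUB3. BUB3 alone averaged 1918 CPM with FL and 934 with EV. The group means of the sum thus lay within the spread of the FL, FL-mut and SF-mut libraries. Where omitting 1 library moved a printed fold change of a member by over 1.5 times, the value without such a library is given beside it. For some, a move in the other direction also passed 1.5 times and is not given beside them. An example is BUB3 in SF-mut against EV, at -1.14 without SF-mut replicate 1.

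**Figure D1:**
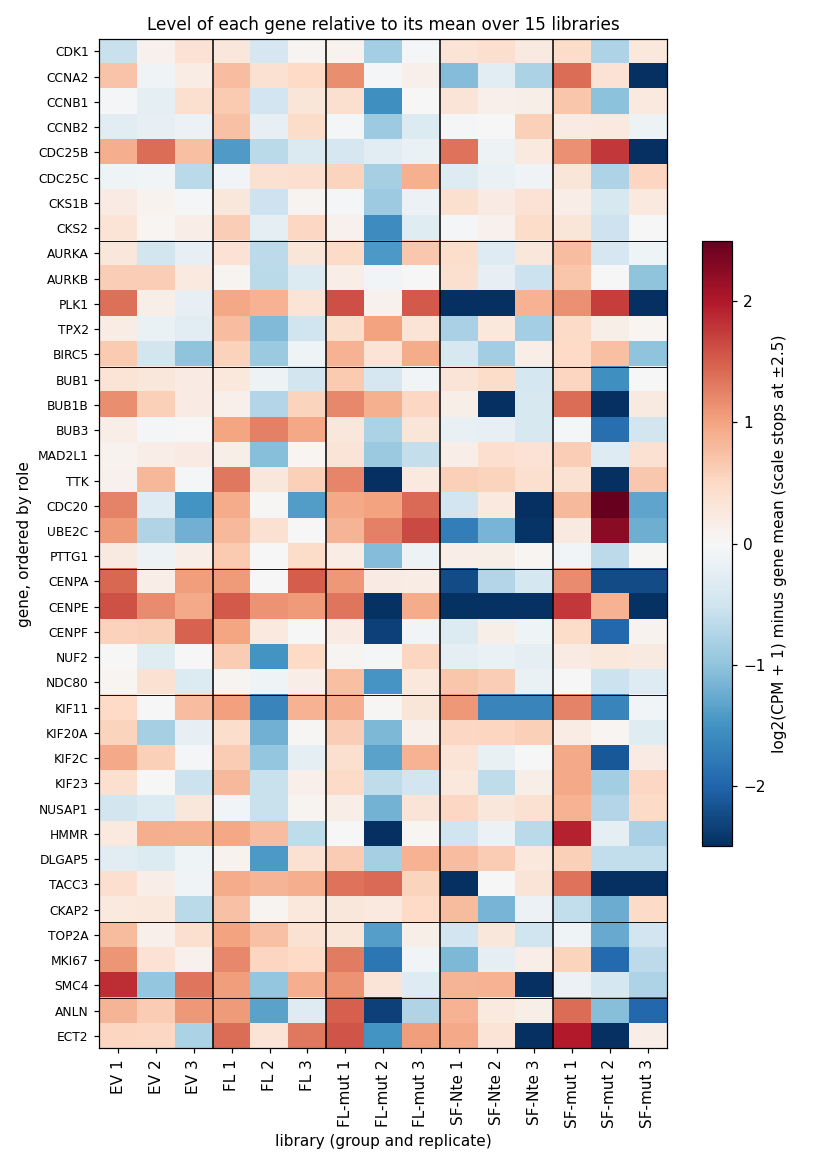
Level of each of the 40 genes (rows, ordered by role) in each of the 15 libraries (columns), as log2(CPM + 1) minus the gene's mean over all libraries; red is above and blue below that mean, and the colour scale stops at 2.5 in either direction. The columns of FL-mut replicate 2 and SF-mut replicate 2 are mostly blue, and no group of 3 columns has one colour over the rows.

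No member passed edgeR's quasi-likelihood test in any comparison of groups when p was adjusted over all tested genes at 0.05. In FL against EV 0 of 38 were called, where 0.31% of all tested genes were, and 2 had an unadjusted p under 0.05, where 7.65% of all genes did. In FL-mut against EV 0 were called (0.192% of all genes) and 1 had an unadjusted p under 0.05 (10.5% of all genes). For SF-Nte against EV the counts were 0 (0.0443% of all genes) and 2 (7.21%), and for SF-mut against EV 0 (0.0591%) and 0 (5.38%). Between FL-mut and FL they were 0 (0.0887%) and 3 (12.1%), between SF-mut and SF-Nte 0 (0%) and 3 (8.31%), and between SF-Nte and FL 0 (1.06%) and 3 (13.2%). A test for any difference among the 5 groups called 0 members (1.12% of all genes), and 2 members, BUB3 and UBE2C, had an unadjusted p under 0.05 (16.3% of all genes). DESeq2 called 0 members in each comparison except SF-Nte against FL, where it called 2, BUB3 and CENPE, and the test for any difference, where it called 2, BUB3 and UBE2C. The 4 comparisons against EV share the EV libraries, and those between constructs share libraries with them.

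The median over the members lay between -0.28 and 0.10 in the 7 comparisons, and omitting 1 library turned its sign in each except SF-Nte against EV. The median log2 fold change of the 38 was 0.10 in FL against EV (-0.01 over all tested genes), with 21 above 0 and 17 below. It was -0.10 in FL-mut against EV (0.04 over all genes; 17 above, 21 below), -0.16 with SF-Nte (-0.13; 14 and 24) and -0.01 with SF-mut (-0.02; 19 and 19). With 1 library left out, the FL median ran from -0.12 (without FL replicate 1) to 0.30 (without FL replicate 2), and the FL-mut median from -0.40 (without FL-mut replicate 1) to 0.15 (without FL-mut replicate 2). The SF-Nte median ran from -0.33 (without EV replicate 3) to -0.0026 (without EV replicate 1), and the SF-mut median from -0.49 (without SF-mut replicate 1) to 0.09 (without SF-mut replicate 3). The precision for single genes was low: the 95% interval of the fold change had a median width of 1.10 to either side on the log2 scale in FL against EV, and it lay wholly within 2-fold in either direction for 5 of the 38. The missing calls therefore do not show unaltered levels. Of the variation of a member's log2 level over the 15 libraries, a median of 28.4% lay between groups, against 36.7% for all tested genes.

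**Figure D2:**
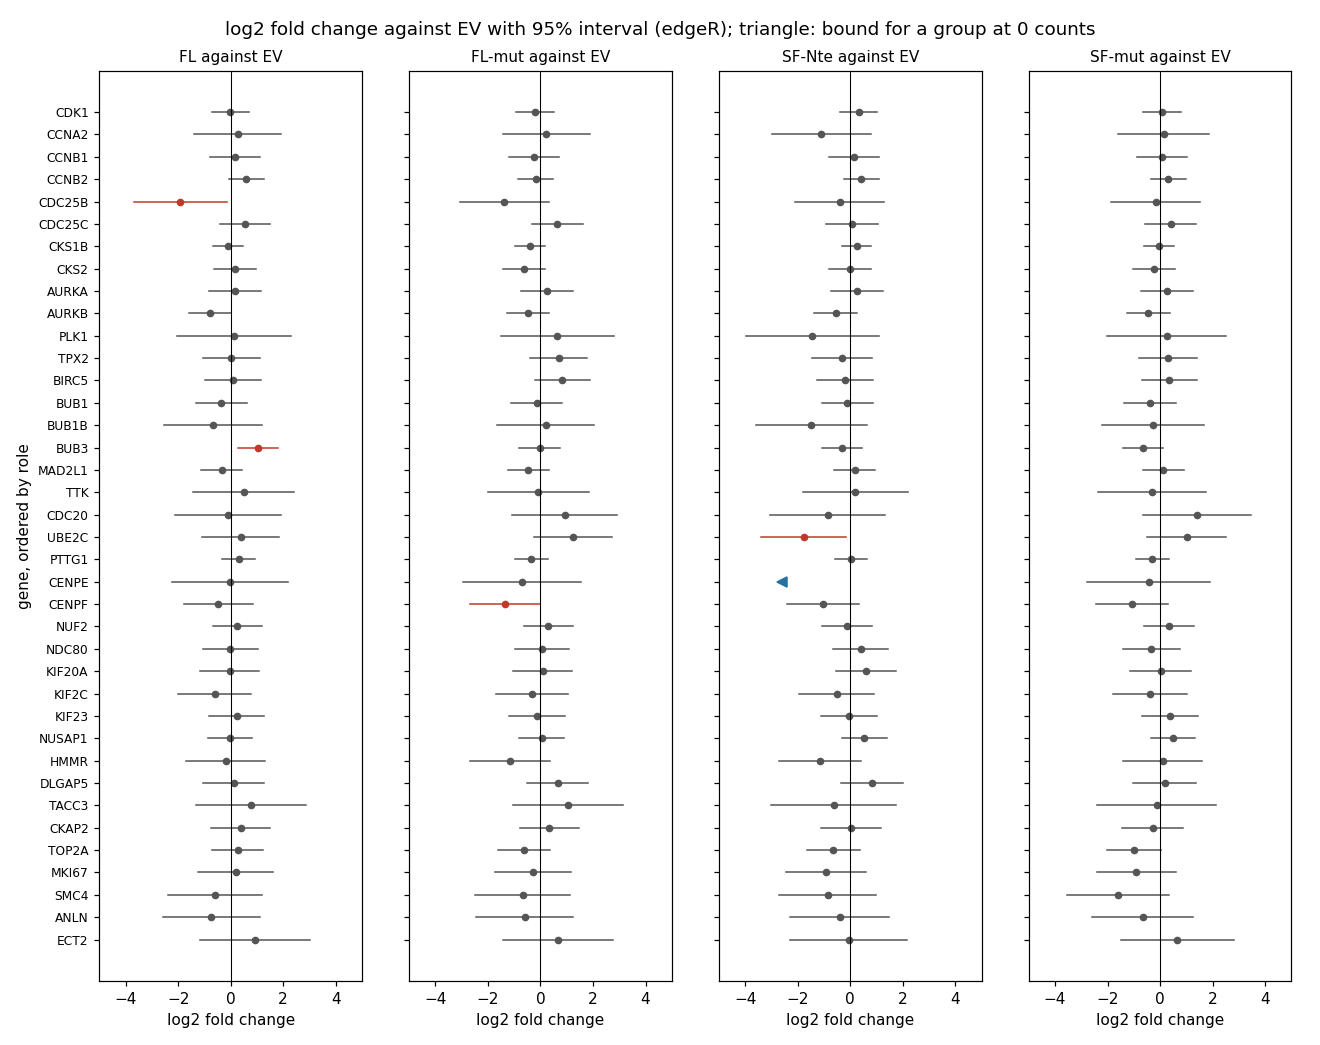
Fitted log2 fold change against EV (horizontal axis) of the 38 tested genes (rows, by role) in each construct group, with 95% intervals from the edgeR fit. Red marks an unadjusted p under 0.05; the triangle is the bound for CENPE, which had 0 counts in SF-Nte. The intervals of 4 genes in 1 comparison each, in red, do not cross 0; those of the others drawn do.

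Among CDK1 and its partners, the levels of cyclin B1 overlapped between all groups, and those of the kinase between all but FL-mut and SF-Nte. CDK1 stood at 616, 981 and 1173 CPM with EV, 1103, 681 and 961 with FL, 971, 507 and 900 with FL-mut, 1151, 1226 and 1068 with SF-Nte, and 1262, 535 and 1093 with SF-mut. The 3 SF-Nte libraries thus lay above the 3 FL-mut libraries, and replicate 2 was the lowest library within each of FL, FL-mut and SF-mut. CCNB1, which encodes cyclin B1, had the same order within those groups, at 708 CPM in FL replicate 2 (1562 and 1227 in the others), 341 in FL-mut replicate 2 (1317 and 989) and 489 in SF-mut replicate 2 (1611 and 1179), and stood at 955, 842 and 1316 CPM with EV. CKS1B and CKS2, small adaptors of the cyclin-dependent kinases, ranged from 686 to 1684 and from 87.7 to 401 CPM, with FL-mut replicate 2 lowest for both. CCNA2, cyclin A2, had at most 25.7 CPM. Its counts were all even, as were those of TPX2, so it is not known whether each read of these genes was counted once, and their levels are uncertain. CDC25C, a phosphatase that activates CDK1, ranged from 28.9 to 97.0 CPM.

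CCNB2, cyclin B2, stood at 151, 159 and 164 CPM with EV and at 302, 159 and 252 with FL, with a log2 fold change of 0.59 ± 0.31 (SE; adjusted p = 0.74), and 0.35 without FL replicate 1. It stood at 178, 96.6 and 143 CPM with FL-mut, 178, 183 and 276 with SF-Nte, and 210, 214 and 167 with SF-mut. The FL and FL-mut libraries overlapped, with FL replicate 2 at the level of EV. The log2 difference of FL-mut from FL was -0.77 ± 0.32 (adjusted p = 0.38), and -0.58 without FL-mut replicate 2.

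CDC25B, a phosphatase that starts CDK1 activation in G2, differed most between EV and the full-length constructs in fold among the members with counts in all groups, but it rests on few counts. It stood at 31.4, 44.3 and 27.95 CPM with EV, 5.44, 9.76 and 12.3 with FL, and 11.9, 13.3 and 14.5 with FL-mut. All 6 full-length libraries lay below all 3 EV libraries. The log2 fold change against EV was -1.91 ± 0.83 for FL (edgeR adjusted p = 0.56) and -1.37 ± 0.80 for FL-mut (adjusted p = 0.57). The short-form libraries were spread from 0 to 57.4 CPM (43.5, 14.8 and 19.5 with SF-Nte; 36.9, 57.4 and 0 with SF-mut) and overlapped EV. The promoter stretch shown for CDC25B holds the CHR variant and no ACATCTG letters.

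The mitotic kinases and their activators gave no call either. AURKB, Aurora kinase B of the chromosomal passenger complex, stood at 294, 292 and 227 CPM with EV and 201, 120 and 151 with FL, with no overlap, and the log2 fold change was -0.78 ± 0.38 (adjusted p = 0.67). The 3 FL-mut libraries (213, 182 and 189 CPM) were also below EV, and the short-form libraries, from 94.6 to 309 CPM, overlapped it. AURKA, Aurora kinase A, ranged from 120 to 553 CPM, and BIRC5, which encodes survivin of the passenger complex, from 121 to 466. For BIRC5 the log2 fold change was 0.83 ± 0.50 in FL-mut against EV (adjusted p = 0.58) and 0.76 ± 0.50 against FL (adjusted p = 0.57), with overlapping libraries. With 1 library left out, the first ran from 0.48 (without EV replicate 3) to 1.44 (without EV replicate 1) and the second from 0.44 (without FL replicate 2) to 1.18 (without FL replicate 1). PLK1, Polo-like kinase 1, had 0 counts in 3 short-form libraries and at most 36.2 CPM, and TPX2, an activator of Aurora A, ranged from 12.2 to 55.5 CPM. Between mutant and parent form, all 5 of these genes had fitted values above 0 in both forms (median 0.51 for FL-mut against FL and 0.57 for SF-mut against SF-Nte). Of all tested genes, 51.2% and 52.6% lay above 0 in these comparisons. The lowest of the 5 values were 0.10 and 0.0050, and the smallest unadjusted edgeR p was 0.15 and 0.19.

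Among the spindle checkpoint and APC/C genes, BUB3 came nearest to a call. BUB3 (chr10:123154277-123170467, GRCh38) encodes a checkpoint protein that holds BUB1 and BUBR1 at kinetochores. Its level was 1012, 884 and 907 CPM with EV, 1802, 2175 and 1776 with FL, 1095, 521 and 1121 with FL-mut, 798, 778 and 684 with SF-Nte, and 880, 245 and 656 with SF-mut. All 3 FL libraries lay above the 12 others, which held for 1 of the 38 members and for 1.15% of all tested genes, and FL replicate 2, low for most members, was the highest of the 15. No member lay wholly below the other groups in FL (0.724% of all genes), nor wholly above or below them in EV (0.34% and 0.0296%), FL-mut (0.901% and 0.798%), SF-Nte (1.03% and 0.975%) or SF-mut (0.118% and 0.488%). The mean was 1918 ± 223 CPM with FL and 934 ± 68.5 with EV (SD, n = 3). On the log2 scale FL lay 1.04 ± 0.37 above EV (SE; 95% interval 0.26 to 1.81). The edgeR p was 0.012 and the adjusted p 0.35. Against FL the log2 difference was -1.07 ± 0.37 for FL-mut (adjusted p = 0.32; -0.80 without FL-mut replicate 2) and -1.35 ± 0.37 for SF-Nte (adjusted p = 0.11). In the test for any difference the p was 0.0024 and the adjusted p 0.097. DESeq2 gave an adjusted p of 0.013 for SF-Nte against FL and 0.13 for FL against EV. Another edgeR fit, chosen after seeing the data, left out FL-mut replicate 2 and SF-mut replicate 2, although neither library is in the groups compared. Its adjusted p was 0.019 for FL against EV and 0.0031 for SF-Nte against FL. Over the 14 alternatives, run with edgeR or DESeq2, the adjusted p reached up to 0.89 and 0.36 in that order. The fold change of FL against EV lay above 0 in all 14 alternatives run, from 0.94 to 1.09 on the log2 scale.

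No other checkpoint gene had all FL libraries above all EV libraries. BUB1, the kinase that binds BUB3, stood at 80.01, 77.2 and 72.5 CPM with EV and 75.5, 57.4 and 45.6 with FL. MAD2L1, which encodes the checkpoint protein MAD2, stood at 355, 374 and 383 CPM with EV and 369, 159 and 345 with FL (log2 fold change -0.35 ± 0.36, adjusted p = 0.92). That value rests on FL replicate 2, without which it was -0.05, and it was -0.59 without FL replicate 1. BUB1B (BUBR1) and TTK (the checkpoint kinase MPS1) had 0 counts in 2 libraries each. PTTG1, which encodes securin, stood at 1351, 1057 and 1287 CPM with EV, 1817, 1147 and 1577 with FL, and 1307, 546 and 1057 with FL-mut. Its FL-mut and FL libraries overlapped, with a log2 difference of -0.64 ± 0.29 (adjusted p = 0.40), and -0.37 without FL-mut replicate 2.

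**Figure D3:**
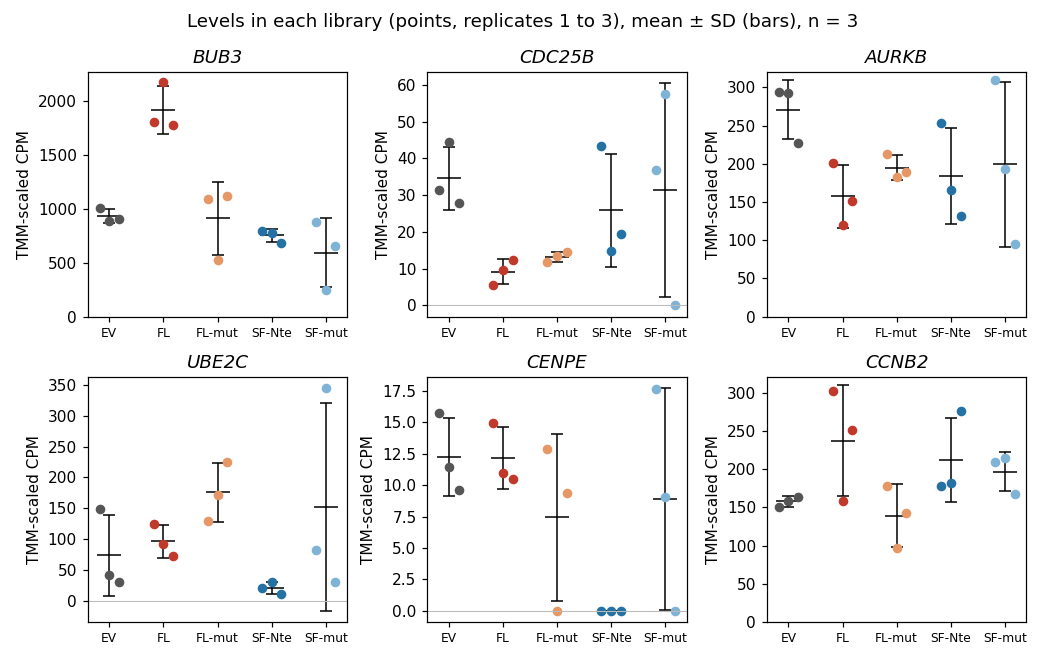
TMM-scaled CPM (vertical axis, linear) of 6 members in each library by group; points are replicates 1 to 3 from left to right and bars the mean ± SD (n = 3). BUB3 shows 3 FL points between 1776 and 2175 CPM and all others at or below 1121; CENPE is at 0 in the 3 SF-Nte libraries.

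UBE2C and CDC20, partners of the APC/C, varied most among the short-form libraries. UBE2C, the ubiquitin-conjugating enzyme that starts chains on APC/C substrates, stood at 149, 42.2 and 30.6 CPM with EV, 125, 92.7 and 72.2 with FL, 130, 172 and 225 with FL-mut, 20.8, 31.4 and 12.2 with SF-Nte, and 83.4, 344 and 30.2 with SF-mut. SF-Nte lay below FL without overlap, while the highest SF-Nte library was above the lowest EV and SF-mut libraries. The log2 difference of SF-Nte was -1.77 ± 0.76 from EV (adjusted p = 0.64; -0.75 without EV replicate 1, the highest EV library) and -2.15 ± 0.77 from FL (adjusted p = 0.23). SF-mut differed from SF-Nte by 2.78 ± 0.79 (adjusted p = 0.57), but by 1.38 without SF-mut replicate 2, and its fold change against EV of 1.01 became -0.40 without that library and 2.03 without EV replicate 1. UBE2C counts in SF-Nte were 5 at the lowest. FL-mut lay above FL for UBE2C without overlap (log2 difference 0.86 ± 0.70, adjusted p = 0.66), and above EV with overlap (1.24 ± 0.70, adjusted p = 0.56). The latter ran from 0.82 without EV replicate 3 to 2.26 without EV replicate 1.

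CDC20, the APC/C activator, stood at 52.0, 17.2 and 6.99 CPM with EV, 42.2, 22.0 and 7.60 with FL, 42.6, 44.4 and 59.4 with FL-mut, 15.1, 25.8 and 0 with SF-Nte, and 38.5, 163 and 8.05 with SF-mut. SF-mut replicate 2 was the highest library for both CDC20 and UBE2C, although it was low for most members. The log2 difference of SF-mut from SF-Nte was 2.26 ± 1.06 (adjusted p = 0.60), and 0.74 without that library. Against EV the SF-mut value was 1.40 ± 0.97 (adjusted p = 0.99), -0.14 without it and 2.46 without EV replicate 1.

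Of the kinetochore and centromere genes, CENPE, the kinesin that moves chromosomes to the spindle equator, had 0 counts in the 3 SF-Nte libraries. It stood at 15.7, 11.4 and 9.61 CPM with EV, 14.97, 10.98 and 10.4 with FL, 12.9, 0 and 9.41 with FL-mut, and 17.6, 9.06 and 0 with SF-mut. With a floor of 3 counts over the group's libraries, SF-Nte was at least 6.05-fold lower than EV and at least 5.99-fold lower than FL, and SF-mut at least 4.39-fold higher than SF-Nte. The adjusted p was 0.59, 0.17 and 0.57 in that order. At the SF-Nte totals of 432611 to 603155, 1 count is worth 1.84 to 2.44 CPM, so the libraries are shallow for a gene at this level, and the floor covers counting error only.

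CENPF, a kinetochore protein that peaks in G2, was the member with the lowest p in FL-mut against EV. It stood at 40.3, 40.8 and 75.1 CPM with EV, 30.7, 4.44 and 25.3 with FL-mut, 20.8, 29.5 and 24.4 with SF-Nte, and 36.9, 6.04 and 28.2 with SF-mut. All 9 of these construct libraries lay below EV, and FL (53.8, 31.7 and 26.6) overlapped it. The log2 fold change against EV was -1.35 ± 0.63 with FL-mut (adjusted p = 0.47; -0.92 without FL-mut replicate 2), -1.05 ± 0.64 in SF-Nte (adjusted p = 0.77) and -1.08 ± 0.64 in SF-mut (adjusted p = 0.94; -0.68 without SF-mut replicate 2 and -1.62 without SF-mut replicate 1). NUF2 and NDC80, subunits of the complex that grips microtubules, ranged from 20.7 to 93.9 and from 12.2 to 60.4 CPM.

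The kinesins and spindle proteins showed no gene at an unadjusted p under 0.05 against EV. NUSAP1, a microtubule-bundling protein, stood at 597, 648 and 1002 CPM with EV and 1174, 1005 and 1068 with SF-Nte, all above EV (log2 fold change 0.53 ± 0.40, adjusted p = 0.84). DLGAP5, a spindle assembly factor, was likewise without overlap in SF-Nte (49.1, 44.3 and 34.2 CPM against 23.1, 22.2 and 26.2 with EV; 0.84 ± 0.56, adjusted p = 0.80). HMMR, a spindle protein and hyaluronan receptor, stood at 51.5, 82.2 and 81.2 CPM with EV, 43.6, 5.55 and 44.9 with FL-mut, 30.2, 38.7 and 26.9 with SF-Nte, and 167, 36.2 and 24.1 with SF-mut. FL-mut and SF-Nte lay below EV for HMMR, while SF-mut was spread on both sides. TACC3, a spindle stabiliser, had 0 counts in 3 short-form libraries and at most 16.7 CPM. KIF20A, KIF2C, KIF23 and CKAP2, motors and spindle proteins, ranged from 14.6 to 54.5, 6.04 to 58.4, 39.3 to 141 and 12.1 to 52.9 CPM.

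The 3 chromosome structure genes had fitted values below 0 against EV in FL-mut, SF-Nte and SF-mut, without passing. Of all tested genes, 48.2%, 57.2% and 51.6% lay below 0 in these comparisons. TOP2A, the topoisomerase that untangles sister chromatids, stood at 79.0, 49.3 and 59.4 CPM with EV, 91.9, 75.7 and 58.9 with FL, 55.5, 16.7 and 49.96 with FL-mut, 32.1, 55.3 and 31.8 with SF-Nte, and 41.7, 18.1 and 32.2 with SF-mut. The SF-mut libraries lay below EV, with a log2 fold change of -1.002 ± 0.49 (adjusted p = 0.92), and -0.78 without SF-mut replicate 2. The FL-mut and SF-Nte libraries lay below FL (-0.88 ± 0.47, adjusted p = 0.46, and -0.53 without FL-mut replicate 2, and -0.92 ± 0.48, adjusted p = 0.43). MKI67, which encodes the proliferation marker Ki-67, ranged from 27.95 to 56.4 CPM with EV, 37.0 to 60.6 with FL, 6.66 to 65.4 with FL-mut, 11.3 to 29.3 with SF-Nte and 6.04 to 38.5 with SF-mut. SMC4, a condensin subunit, ranged from 0 to 92.3 CPM and shares 1561 exon bases with TRIM59 on the other strand. The cytokinesis genes ANLN, an actin-binding scaffold of the furrow, and ECT2, an activator of RhoA, ranged from 4.44 to 76.3 and from 0 to 59.3 CPM, with overlapping groups against EV.

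Further members were among the 3 of lowest p in a direction of a comparison, and none passed. Against EV, CDC25C differed by 0.53 ± 0.45 on the log2 scale with FL (0.33 to 0.64 with 1 library left out) and by 0.65 ± 0.45 with FL-mut (0.25 to 0.98), and CKS2 by -0.63 ± 0.37 with FL-mut (-0.31 without FL-mut replicate 2). CCNB2 differed by 0.42 ± 0.32 with SF-Nte, and by 0.18 without SF-Nte replicate 3. With SF-mut, NUSAP1 differed by 0.49 ± 0.40 (0.05 without SF-mut replicate 1), BUB3 by -0.65 ± 0.36 (-0.30 without SF-mut replicate 2) and SMC4 by -1.62 ± 0.92 (-1.06 without EV replicate 1). The sign of each of these values was the same whichever library was left out.

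Between constructs, TPX2 lay 0.67 ± 0.51 higher in FL-mut than in FL on the log2 scale (0.33 to 1.41 with 1 library left out). From SF-Nte to SF-mut the difference was -0.73 ± 0.52 for NDC80, -0.66 ± 0.58 for DLGAP5 (-1.31 without SF-mut replicate 1) and -0.29 ± 0.27 for CKS1B (-0.13 without SF-mut replicate 2). SF-Nte differed from FL by 1.51 ± 0.85 for CDC25B (0.89 without SF-Nte replicate 1), 0.51 ± 0.36 for MAD2L1 (0.20 without FL replicate 2) and 0.56 ± 0.40 for NUSAP1.

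Exon bases shared with another counted gene, where the use of strand in counting is not given in the sources used here, concern 7 members: CCNA2, CDC25C, PLK1, BUB1B, KIF20A, SMC4 and ANLN. Reads of these genes and of their neighbours cannot be told apart there.

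Complete separation of the libraries of 2 groups was counted beside its share over all tested genes. In FL against EV 3 of 38 members (CDC25C, BUB3 and TACC3) lay wholly above, where 8.75% of all genes did, and 2 (CDC25B and AURKB) wholly below, where 8.17% did. In FL-mut against EV 2 lay above (8.36% of all genes) and 4 below (9.07%), in SF-Nte 4 above (5.98%) and 6 below (11.3%), and in SF-mut 2 above (2.9%) and 3 below (7.7%). The 6 below in SF-Nte were CCNA2 (with its uncertain counts), BUB1B, BUB3, CENPE, CENPF and HMMR, and the 4 above were CCNB2, CKS1B, NUSAP1 and DLGAP5. Between FL-mut and FL 2 lay above (8.97%) and 2 below (9.43%), and between SF-mut and SF-Nte 1 above (5.73%) and 2 below (6.64%). Between SF-Nte and FL 4 lay above (9.86%) and 8 below (14.6%). Those 8 were CCNA2, CDC25C, BUB3, UBE2C, CENPE, TACC3, TOP2A and MKI67, and the median over the 38 was -0.28, with -0.15 over all tested genes. Without FL replicate 1 that median turned to 0.06. Short-form libraries also differ in depth from FL libraries. In ZBTB18 level, SF-Nte (195 to 461 CPM) lay below FL (612 to 3009 CPM) as well. The part of either in these values was not tested.

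Whether the difference between mutant and parent construct differed between the 2 forms was tested as an interaction, which called 0 members (0.0296% of all genes called). Of the members 2, CENPE and HMMR, had an unadjusted p under 0.05, where 4.65% of all genes did. For HMMR the difference was 2.24 ± 1.04 on the log2 scale (adjusted p = 1), with 1 SF-mut library, replicate 1, at 167 CPM and the other two at 36.2 and 24.1, and it was 0.81 without that library. The other values were 1.93 ± 1.04 for UBE2C (0.51 without SF-mut replicate 2), -1.20 ± 0.80 for DLGAP5 (-1.82 without SF-mut replicate 1), -0.79 ± 0.71 for NDC80 (-0.36 without FL-mut replicate 1) and -0.70 ± 0.76 for KIF20A (-0.32 without FL-mut replicate 1). The median over the 38 was 0.23, and 0.13 without FL-mut replicate 2 and SF-mut replicate 2. It ran from -0.17 (without SF-mut replicate 1) to 0.51 (without FL-mut replicate 1) with 1 library left out.

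Within groups, single libraries were high or low for most members at once. For each library, the deviation of a gene's log2(CPM + 1) from its group mean was taken, and the median over the 38 was 0.39 in FL replicate 1 and -0.39 in FL replicate 2. It was 0.53 in FL-mut replicate 1, -0.73 in replicate 2 and 0.27 in replicate 3, and 0.71, -0.51 and 0.01 in the 3 SF-mut libraries. In EV and SF-Nte it stayed between -0.11 and 0.17, and over all tested genes between -0.12 and 0.10 in the 15 libraries. FL-mut replicate 2 was the lowest of its group for 31 of the 38 members, where it was lowest for 36.2% of all genes, and FL replicate 2 for 26 (33.9%). FL replicate 1 was the highest of its group for 31 (33.5%), and SF-mut replicate 1 for 26 (32.7%). SF-mut replicate 2 was the lowest for 21 (41.5%) but the highest for 7: CCNB2, CDC25B, PLK1, BIRC5, CDC20, UBE2C and NUF2. FL-mut replicate 2 was the highest for TPX2 and TACC3. These deviations are a description of the libraries, since the genes of 1 library share its cells and its preparation.

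**Figure D4:**
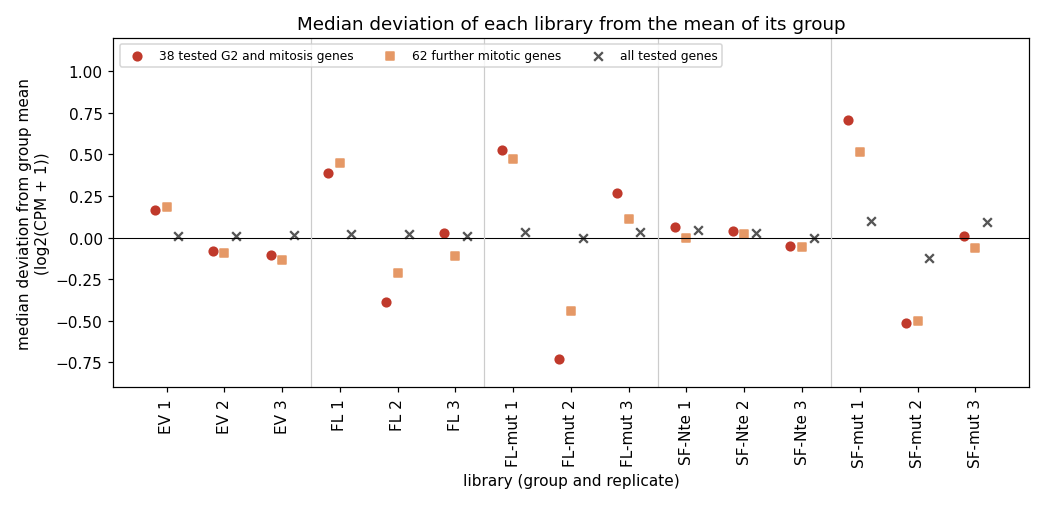
Median deviation of each library (horizontal axis) from its group mean in log2(CPM + 1) (vertical axis), over the 38 tested G2 and mitosis genes (circles), 62 further mitotic genes (squares) and all 6767 tested genes (crosses). FL, FL-mut and SF-mut spread from -0.73 to 0.71 for the mitotic genes, while all genes stay between -0.12 and 0.10.

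Of these libraries, 5 also stood apart for 62 other mitotic genes, with median deviations of 0.45 in FL replicate 1, 0.47 and -0.44 in FL-mut replicates 1 and 2, and 0.51 and -0.50 in SF-mut replicates 1 and 2. FL replicate 2 did so less, at -0.21, where the EV libraries ran from -0.14 to 0.18. Over 1975 well-counted genes, the deviations of FL-mut replicate 1 and SF-mut replicate 1 had a correlation of 0.60, those of the replicates 2 one of 0.66 and those of the replicates 3 one of 0.03, given as a description across genes. Transcript length moved with the deviations most in FL-mut and SF-mut replicates 1 and 2. Over the 38 members, Spearman's rho of length and deviation was 0.46 and -0.23 in FL-mut replicates 1 and 2, 0.49 and -0.36 in SF-mut replicates 1 and 2, and 0.13 and -0.03 in FL replicates 1 and 2, as a description. Outside those FL-mut and SF-mut libraries it ran from -0.15 (FL replicate 3) to 0.17 (SF-Nte replicate 2). In FL-mut replicate 2 the median deviation was -0.59 for the 19 members with shorter principal transcripts and -0.999 for the 19 with longer ones (split at 2926 bases), where all tested genes, split at the same length, stood at 0.12 and -0.11. In SF-mut replicate 2 it was -0.40 and -0.65 for the members and 0.07 and -0.34 for all genes. The members of both length classes were thus low in both libraries. ZBTB18 was at 2747 CPM in FL-mut replicate 2, 3009 in FL replicate 2 and 3557 in SF-mut replicate 2, and at 612 to 890 CPM in the other libraries of these groups except FL-mut replicate 3, at 6734 CPM, where the members were not low. The part of length, depth or ZBTB18 level in the low member levels was not tested.

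**Figure D5:**
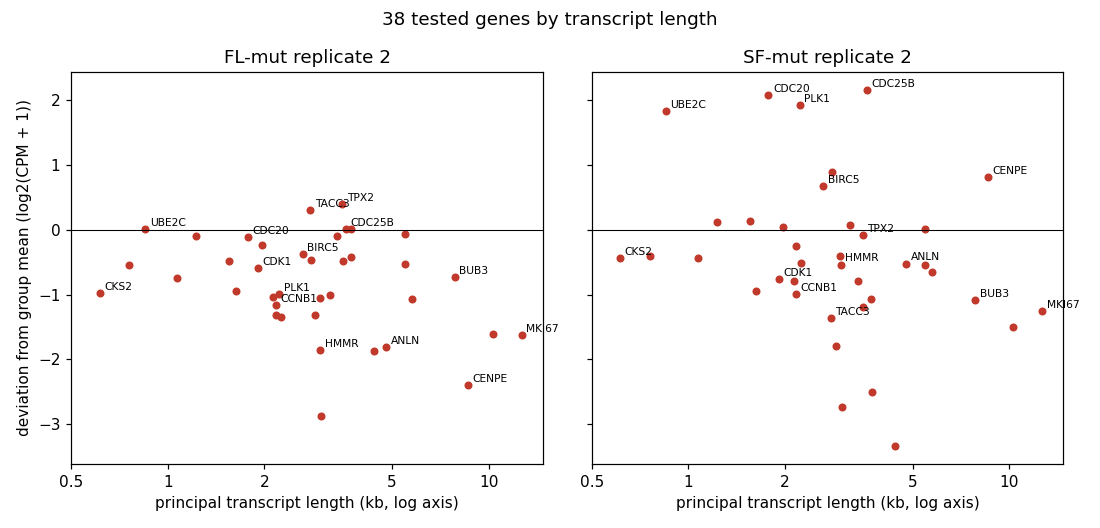
Deviation from the group mean in log2(CPM + 1) (vertical axis) against principal transcript length in kb (log axis) for the 38 tested members in FL-mut replicate 2 (left) and SF-mut replicate 2 (right); each point is 1 gene, some of them named. Most points lie below 0 in both, and UBE2C, CDC20, PLK1 and CDC25B lie above 1.5 on the right.

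Regulators and brakes of this programme showed no call either. Of 17 regulators of G2 and M transcription (subunits of MuvB, B-MYB, FOXM1, NF-Y and the like) 12 were tested. Of 73 further mitotic genes 62 were tested, and of 20 genes listed as brakes on CDK activity 7. The last list also holds MDM2 and PLK2, which are linked to p53 and are not themselves CDK inhibitors. In each of the 7 comparisons and the interaction 0 genes of these lists passed. FOXM1, a transcription factor of mitotic genes, stood at 61.8 ± 25.8 CPM with EV, 58.6 ± 35.0 with FL, 66.2 ± 29.8 with FL-mut, 34.1 ± 27.95 with SF-Nte and 42.9 ± 30.4 with SF-mut (SD, n = 3). It had the lowest p of the regulators in SF-Nte against EV (log2 fold change -0.84 ± 0.68, adjusted p = 0.86, and -1.80 without SF-Nte replicate 2). In FL against EV the lowest p of each list belonged to LIN52, a MuvB subunit (1.76 ± 0.89, adjusted p = 0.71), KNTC1, a kinetochore protein (2.49 ± 0.86, adjusted p = 0.35; 1.55 without FL replicate 2), and MDM2, which targets p53 (0.96 ± 0.43, adjusted p = 0.60). In FL-mut against EV they belonged to LIN54, the subunit of MuvB that contacts CHR DNA (1.36 ± 0.62, adjusted p = 0.46), HMGB2, a chromatin protein (-0.83 ± 0.27, adjusted p = 0.29), and CDKN1A, which encodes the CDK inhibitor p21 (2.51 ± 1.11, adjusted p = 0.44). CDKN1A stood at 19.8, 84.4 and 38.4 CPM with FL-mut, with the highest value in replicate 2, and at 3.93, 11.4 and 9.61 with EV, 2.72, 19.5 and 0 with FL and at most 12.1 in the short-form libraries. All 3 FL-mut libraries were above the 12 others, as for 0.901% of all genes, and the lowest of them, 19.8 CPM, lay just above FL replicate 2.

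Between FL-mut and FL, ANAPC5, an APC/C subunit, had the lowest p of the further mitotic genes (1.85 ± 0.47, adjusted p = 0.21), CDKN1A of the brakes (2.74 ± 1.14, adjusted p = 0.38; 4.86 without FL replicate 2) and RBBP4 of the regulators (0.78 ± 0.43, adjusted p = 0.48). ANAPC5 stood at 57.8, 14.6 and 20.9 CPM with FL and 93.1, 107 and 142 with FL-mut, with no overlap. PLK2, a kinase induced by p53, had the lowest p of the brakes in SF-mut against SF-Nte (2.20 ± 0.69, adjusted p = 0.57; 1.31 without SF-mut replicate 1), in SF-mut against EV (1.36 ± 0.62, adjusted p = 0.92; 0.45 without SF-mut replicate 1) and in SF-Nte against FL (-1.66 ± 0.68, adjusted p = 0.30). It stood at 7.56, 14.8 and 14.7 CPM with SF-Nte and 103, 42.3 and 24.1 with SF-mut. In SF-Nte against EV the lowest p of the further mitotic genes was that of SMC2, a condensin subunit and partner of SMC4 (-1.73 ± 0.70, adjusted p = 0.60).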

How the data were processed

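The 15 libraries were grouped by their titles. The values the authors deposited are raw whole-number counts by gene symbol. The genome build was GRCh38, per the submitters' processing notes; aligner, counter, annotation and strandedness: not given in the sources used here. The main test was edgeR 4.0.16, run in R 4.3.3 (filterByExpr, minimum count 10 and minimum total 15; TMM; robust quasi-likelihood fit with 1 coefficient per group and 10 residual degrees of freedom; Benjamini-Hochberg over 6767 genes at 0.05); DESeq2 1.42.0 was an alternative. The fitting code was tested on simulated data. Levels are CPM from the deposited total counts and TMM factors. The SE is the log2 fold change divided by the square root of F. Groups at 0 got a floor of 3 counts, and intervals and floors cover counting error only where no replicates enter. Positions and transcript lengths came from GENCODE 29 (17975 of 18485 symbols matched, 97.2%), and promoters from RefSeq.

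The 40 members and the lists were chosen with earlier results of these data known. Values are given for members described by role, for the 3 of lowest p in each direction of a comparison and for the list gene of lowest p. Replicates of every group differed by more than sampling noise (chi-square per gene from 4.23 to 38.0). Over 1975 genes with a mean count of at least 50, same-numbered EV and FL libraries deviated together (r = 0.37, 0.15 and 0.51, each above the limit of 0.1). They were treated as paired only in the alternative with the replicate block, from the data and not from any label. The main fit, and the FL against EV errors and p-values printed from it, did not use this pairing. No other comparison between a pair of groups made here met that limit. FL and SF-mut, which both enter the interaction and the test for any difference, also met it (r = 0.15, 0.16 and 0.36). The alternatives were another scaling, no filter or a stricter one, DESeq2, the replicate block, the 6 compared libraries alone, each library left out, and, chosen after seeing the data, FL-mut replicate 2 and SF-mut replicate 2 left out together. A second sample sheet lists the short-form libraries, and only the SF-mut libraries have barcode names that repeat with a suffix. Either may mark separate handling. The sheet cannot be told apart from the form. The barcode names cannot be told apart from SF-mut in its comparisons with SF-Nte and EV or in the interaction.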

Additional observations from a re-analysis of the deposited data

How the results depend on the processing

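The count of members called was recomputed 139 times and was still 0 in 128. With no filter on low counts it was 2 in SF-Nte against EV (CENPE, UBE2C), 1 in SF-mut against SF-Nte (UBE2C), 3 in SF-Nte against FL (BUB3, CENPE, UBE2C) and 2 for any difference (BUB3, UBE2C). DESeq2 gave 2 in SF-Nte against FL (BUB3, CENPE) and 2 for any difference (BUB3, UBE2C), and the fit of the 6 compared libraries gave 2 in SF-Nte against FL (BUB3, UBE2C). Without FL-mut replicate 2 and SF-mut replicate 2 together, an alternative chosen after seeing the data, BUB3 was the 1 member called in each of FL against EV, SF-Nte against FL and any difference. Leaving out 1 library gave 0 in every comparison of groups and from 0 to 1 for any difference, the 1 without SF-mut replicate 2. The cause of these differences was not tested. With the replicate number as a block, the count was 0 in every comparison, and the paired log2 fold change of BUB3 between FL and EV was 1.07 (adjusted p = 0.25), so the block changed no call.

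Of 694 recomputed fold changes of single members, 678 kept their call and direction, 12 were newly past the threshold and 4 reversed: in SF-mut against EV, CDC20 went to -0.14 without SF-mut replicate 2 and -0.18 without both low libraries, and UBE2C to -0.40 and -0.44. With each library left out in turn they spanned -0.14 to 2.46 and -0.40 to 2.03, the highest without EV replicate 1. The median over members moved by more than its spread in 7 of 117 cases; it was -0.33 in SF-Nte against EV without EV replicate 3, -0.49 in SF-mut against EV without SF-mut replicate 1 and 0.06 in SF-Nte against FL without FL replicate 1. Of 351 recomputed counts for the other lists, 8 moved. Depth limits the short-form groups most, where 1 count is worth up to 3.02 CPM.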
